A study of Mus musculus with 9 samples.

Results

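The normal ventricular apex of the adult mouse is described here from 5 wild-type hearts, out of 9 hearts in the series. The 5 were chosen by their label as wild type, and the 4 hearts labelled as germline Parkin knockouts entered no calculation. All 5 mice were adult, on a C57BL/6J background, and no treatment is given for any of them. The labels call the tissue the whole heart, whereas the protocol says that the apex of the ventricles was frozen and extracted, and the results below go by the protocol. Polyadenylated RNA was sequenced as single-end reads without strand, and reads from genes that overlap on opposite strands therefore cannot be told apart. The labels do not say whether the hearts came from separate litters or days, so the spread between hearts may hold technical as well as biological differences. In bulk tissue, fewer cells of a type and less RNA per cell cannot be told apart.

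The working ventricle contracts without rest, and its muscle cells are packed with sarcomeres, the units in which myosin thick filaments pull on actin thin filaments, and with mitochondria that make the ATP. The mitochondrial genome encodes a small set of respiratory chain subunits together with its own ribosomal and transfer RNAs, and all other subunits are made from nuclear genes. The adult mouse ventricle is known for α-myosin, for muscle forms of many metabolic enzymes and for burning mainly fatty acids. Myocytes fill most of the tissue volume, while endothelial cells, fibroblasts and mural cells make up a large part of its nuclei.

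The 5 libraries differed in depth and in how much of that depth was mitochondrial. Hearts 1 to 5 held 20827699, 4415183, 4655742, 14201590 and 11252463 assigned reads. Reads of the 37 mitochondrially encoded genes made up 32.6% in heart 1, 58.2% in heart 2, 55.9% in heart 3, 37.8% in heart 4 and 50.7% in heart 5. Their mean was 47.0% ± 11.3 (SD, n = 5), and counting error is small beside that spread, with a 95% Wilson interval of 58.16 to 58.25% in the shallowest heart. From the deepest heart to the shallowest the order was 1, 4, 5, 3 and 2, and from the lowest mitochondrial share to the highest it was the same, so depth and mitochondrial share cannot be told apart in these 5 hearts. The row of the ribosomal RNA precursor, Rn45s, ran the other way on the whole, with 3.57%, 1.19%, 0.939%, 2.58% and 2.20% of assigned reads in hearts 1 to 5. All shares below are therefore taken over nuclear reads without Rn45s, of which the hearts held from 1793083 to 13290061.

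**Figure D1:**
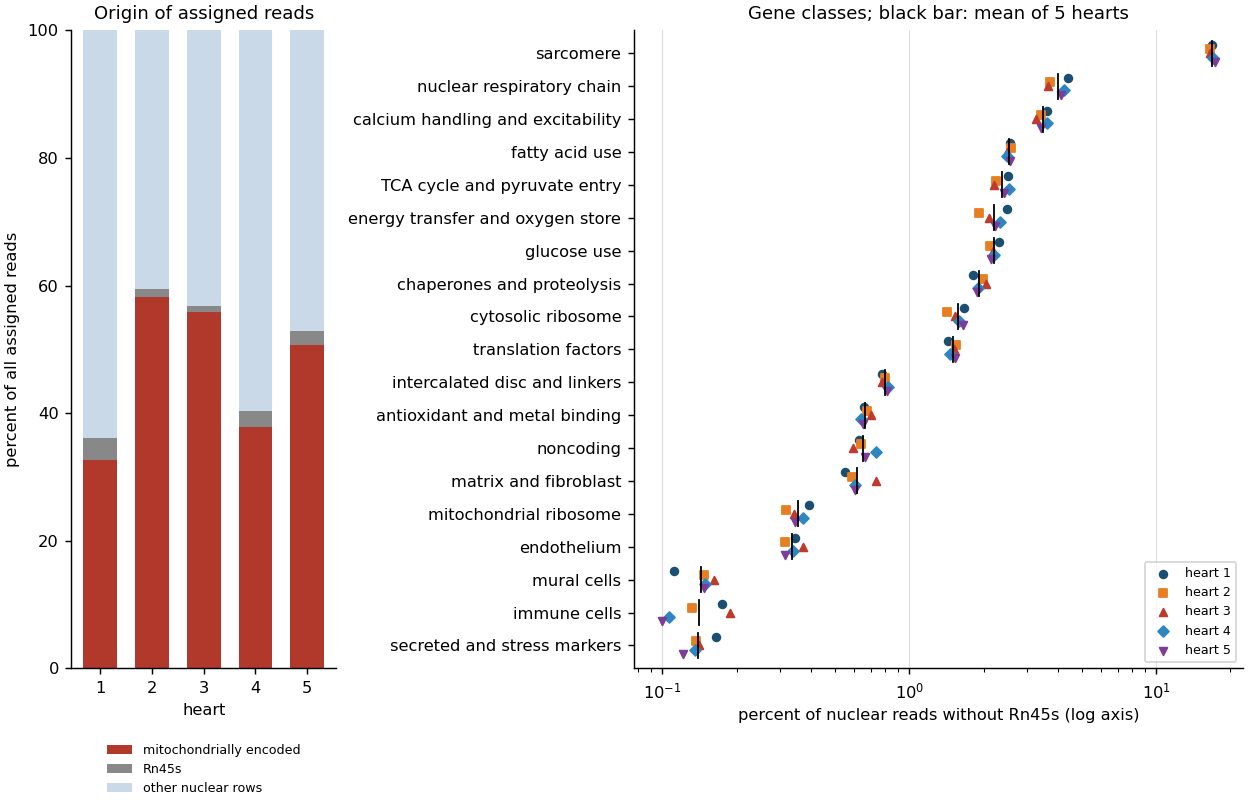
Left, percent of all assigned reads in each of the 5 hearts that were mitochondrially encoded, from Rn45s, or from other nuclear rows. Right, percent of nuclear reads without Rn45s (log axis) held by each nuclear gene class except blood, 1 point per heart and a black bar at the mean; the mitochondrial share runs from 32.6 to 58.2%, while the sarcomere share stays between 16.5 and 17.3%.

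Within the mitochondrial reads, messenger RNA dominated and its make-up differed between hearts. The 13 mRNAs held 94.9% ± 1.07 of mitochondrial reads (SD, n = 5), the 2 ribosomal RNAs 5.01% ± 1.08 and the 22 transfer RNAs 0.137% ± 0.0352. These are shares in a poly(A) library and do not describe the ribosomal RNA content of the cell. Per kilobase, mt-Nd2, a membrane subunit of complex I, stood above mt-Nd4, another complex I subunit, in 5 of 5 hearts, whereas most of the next neighbours in the order exchanged places. At the low end mt-Co3, a core subunit of complex IV, and then mt-Nd3 of complex I came last in 5 of 5 hearts. The share of mitochondrial reads from mt-Nd2 was 11.2%, 19.7%, 17.96%, 13.2% and 13.9% in hearts 1 to 5. The share from mt-Co1, the catalytic subunit of complex IV, was 15.6%, 7.54%, 8.10%, 12.8% and 9.72%. Hearts 2 and 3, with the highest mitochondrial shares, thus had the highest share of mt-Nd2 and the lowest of mt-Co1. The share from mt-Cytb, the only mitochondrially encoded subunit of complex III, differed less, from 10.8% to 12.3%. mt-Nd6 is read from the opposite strand to the other mRNAs, and without strand its 5.87% ± 0.944 (SD, n = 5) can also hold reads of transcripts that run across it.

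Mitochondrially encoded subunits were far more abundant than nuclear subunits of the same complex, and by a factor that depended on the complex. The mean of the 3 mitochondrial complex IV mRNAs per kilobase was 53.6, 92.0, 92.3, 68.7 and 79.5 times the mean of the 17 nuclear complex IV genes in hearts 1 to 5. For complex I, with 7 mitochondrial and 37 nuclear genes, the ratio was 133, 575, 483, 195 and 344. For the ATP synthase, with 2 and 19 genes, it lay between 69.1 and 245. In each heart the ratio was larger for complex I than for complex IV, and across hearts it moved 4.32-fold for complex I but 1.72-fold for complex IV. The nuclear mean is over all listed genes, of which 36 of 37 for complex I and 16 of 17 for complex IV had a read. It also holds lower forms such as Cox7a2, so the size of each ratio depends on the list.

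Sarcomere genes formed the largest nuclear class, and their summed share varied little from heart to heart, although single genes varied more (below). The 55 rows of this class held 16.8%, 16.6%, 16.5%, 17.1% and 17.3% of nuclear reads in hearts 1 to 5, a mean of 16.9% ± 0.326 (SD, n = 5). Thick filament genes held 7.01% ± 0.397, thin filament genes 5.45% ± 0.0981 and titin with the Z-disc genes 4.403% ± 0.151. Read shares favour long genes, so the share was also taken per kilobase, as the level in transcripts per 1000000 (TPM) over nuclear rows. On that scale the class held 17.9% ± 0.147, with the thin filament first at 8.82% ± 0.0713 and the thick filament at 5.17% ± 0.364.

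Genes of energy supply took a smaller share of reads and a larger share of transcripts. The respiratory chain, fatty acid use, the tricarboxylic acid (TCA) cycle with pyruvate entry, glucose use, and energy transfer with myoglobin together held 13.4% ± 0.749 of nuclear reads and 23.1% ± 0.970 of TPM (SD, n = 5). The 87 nuclear respiratory chain rows accounted for 4.02% ± 0.329 of reads and 10.1% ± 0.587 of TPM, the largest metabolic class on both scales. By TPM, complex IV held 3.21% ± 0.230, the ATP synthase 2.72% ± 0.249, complex I 2.51% ± 0.149, complex III with cytochrome c 1.24% ± 0.0510 and complex II 0.383% ± 0.0307. The nuclear respiratory chain share was 4.41%, 3.73%, 3.64%, 4.22% and 4.12% of nuclear reads in hearts 1 to 5. It was thus lowest in hearts 2 and 3, where the mitochondrially encoded share was highest.

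Fuel pathways stood close to each other. Fatty acid genes held 2.54% ± 0.0382 of nuclear reads, TCA cycle and pyruvate genes 2.39% ± 0.156, and glucose genes 2.20% ± 0.0687 (SD, n = 5). Fatty acid genes exceeded glucose genes in 5 of 5 hearts and TCA genes in 4 of 5, the exception being heart 4 with 2.50% against 2.55%. By TPM the order of the last 2 changed, with 4.03% ± 0.108 for fatty acid, 2.98% ± 0.0582 for glucose and 2.50% ± 0.170 for TCA genes. Within the fatty acid class, uptake and binding held 1.53% ± 0.0727 of nuclear reads and β-oxidation 1.01% ± 0.0791. Glycolysis, within the glucose class, held 1.81% ± 0.0460 and stood above β-oxidation in 5 of 5 hearts. The lead of the fatty acid class thus rests on its uptake and binding genes. These orders rest on the genes listed in each class. Ech1, an enzyme of fatty acid oxidation with 2499 TPM, was in no class, and the counts of Cpt1b, a fatty acid gene, are in doubt (below). Whether the exception of heart 4 holds with a fuller list was not tested. Calcium handling and excitability held 3.47% ± 0.146 of nuclear reads, most of it from the sarcoplasmic reticulum, the calcium store, at 2.66% ± 0.125.

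Protein synthesis and upkeep came next. Cytosolic ribosomal protein genes held 1.57% ± 0.0958 of nuclear reads and 4.06% ± 0.223 of TPM, translation factors 1.498% ± 0.0462 of reads, and chaperones with the proteasome 1.93% ± 0.0878 (SD, n = 5). Mitochondrial ribosomal protein genes held 0.353% ± 0.0291. Genes typical of other cells were minor: matrix and fibroblast genes held 0.615% ± 0.0703, endothelial genes 0.337% ± 0.0239, mural cell genes 0.143% ± 0.0189 and immune genes 0.140% ± 0.0398. The immune class also holds genes of antigen presentation such as B2m, which are not confined to leukocytes, so its share is not a leukocyte share. The 21905 rows in none of the classes held 57.4% ± 1.04 of nuclear reads.

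Marker genes of ventricular muscle were high, and those of atrium, skeletal muscle and fat were low apart from Nppa. The unit CPM denotes reads per 1000000 nuclear reads without Rn45s. The 8 cardiomyocyte markers summed to 90805 ± 3307 CPM (SD, n = 5) and the 4 ventricular markers to 12464 ± 1155. The 5 atrial markers summed to 61.7 ± 13.5, of which Nppa, atrial natriuretic peptide, supplied most. Myl7, the atrial regulatory light chain, had 19, 0, 1, 0 and 1 reads in hearts 1 to 5, and Bmp10, a growth factor of the atrium, had 1 read over all hearts. The 7 fast skeletal muscle markers summed to 5.04, 2.23, 8.46, 2.72 and 11.1 CPM in hearts 1 to 5, a mean of 5.92 ± 3.82. They were thus highest in hearts 3 and 5. The 5 adipocyte markers summed to 1.08 ± 1.08 and the 5 lymphocyte markers to 6.35 ± 1.75. Endothelial markers summed to 1455 ± 97.0, smooth muscle and pericyte markers to 1150 ± 148, fibroblast markers to 970.5 ± 111 and macrophage markers to 291 ± 43.4. The 4 Y-linked genes were read in all hearts, at 95.3 ± 16.8 CPM, and Xist, the RNA of the inactive X chromosome, stood at 2.73 ± 2.48.

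Ranked per kilobase, thin filament genes led the nuclear transcriptome, with oxygen storage and fatty acid binding close behind. Actc1, cardiac α-actin, stood at 27730, 25414, 25236, 28848 and 25562 TPM in hearts 1 to 5, a mean of 26558 ± 1633 (SD, n = 5). Tnnt2, cardiac troponin T, stood at 25852, 27466, 26042, 25273 and 25198 TPM, a mean of 25966 ± 914. The order of these neighbours was not fixed, since Actc1 was higher in 3 of 5 hearts. Mb, myoglobin, which stores oxygen, followed at 21809 ± 2490 TPM and stood below Tnnt2 in 5 of 5 hearts. Myl2, the ventricular regulatory light chain, at 20714 ± 1905, Fabp3, which binds fatty acids in muscle, at 20374 ± 1688, and Myh6, the α-myosin heavy chain, at 20123 ± 650 did not hold a fixed order among themselves. Myh6 stood above Tnni3, cardiac troponin I (14370 ± 1896), in 5 of 5 hearts.

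**Figure D2:**
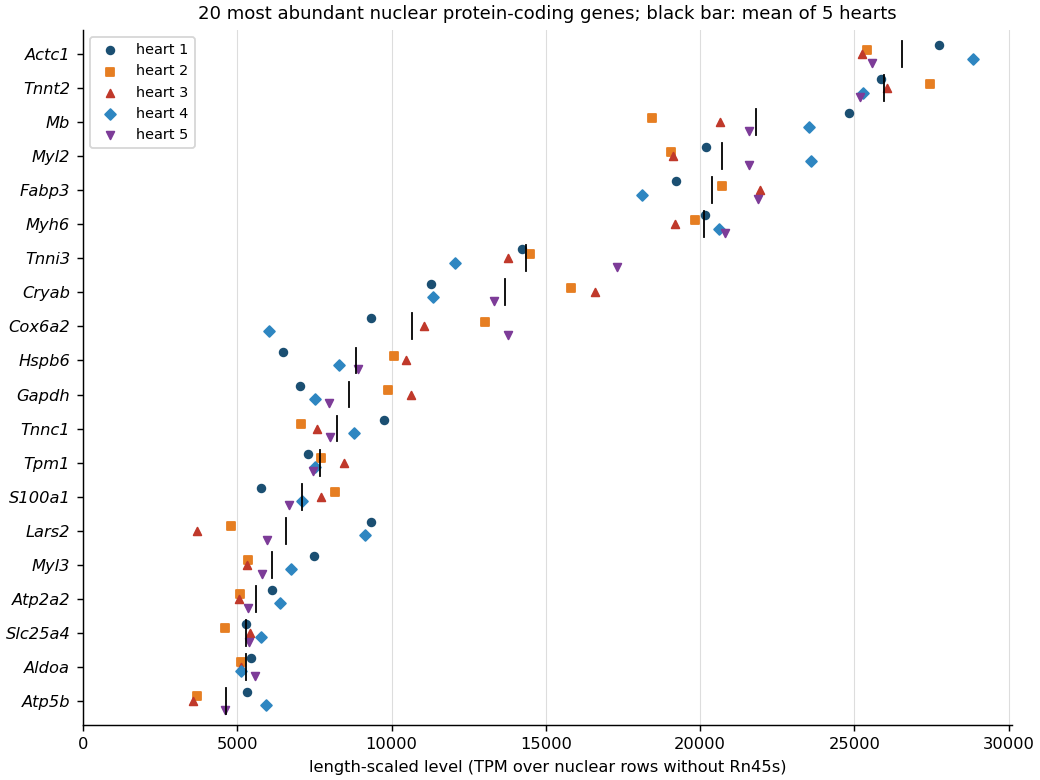
Length-scaled level (TPM over nuclear rows without Rn45s) of the 20 most abundant nuclear protein-coding genes, 1 point per heart and a black bar at the mean of 5 hearts. The first 6 genes lie between 18107 and 28848 TPM in every heart, and Tnni3, the next gene, reaches at most 17309.

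Below these came genes of several roles. Cryab, the small heat shock protein αB-crystallin that was counted with the Z-disc genes, had 13672 ± 2468 TPM (SD, n = 5). Cox6a2, the heart form of a complex IV subunit, had 9345, 13028, 11048, 6041 and 13780 TPM in hearts 1 to 5, the widest spread relative to its mean among the first 14. Hspb6, another small heat shock protein, had 8847 ± 1586 TPM, Gapdh of glycolysis 8611 ± 1558, Tnnc1, cardiac troponin C, 8241 ± 1052, and Tpm1, α-tropomyosin, 7699 ± 451. S100a1, a calcium-binding protein of muscle, had 7085 ± 925 TPM. Myl3, the ventricular essential light chain, had 6143 ± 957 TPM and stood above Atp2a2, the calcium pump of the sarcoplasmic reticulum (5604 ± 619), in 5 of 5 hearts. Slc25a4, the adenine nucleotide translocator of muscle mitochondria (5287 ± 428), Aldoa, aldolase A (5280 ± 223), and Atp5b, the catalytic β subunit of the ATP synthase (4623 ± 1016), closed the 20. Of the 19 neighbouring pairs among the 20, 3 kept their order in all hearts: Tnnt2 over Mb, Myh6 over Tnni3, and Myl3 over Atp2a2.

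Lars2, the mitochondrial leucyl-tRNA synthetase, ranked 15 per kilobase, although it is a housekeeping enzyme. Its level was 9325, 4803, 3696, 9127 and 5965 TPM in hearts 1 to 5. Rn45s made up 5.29%, 2.84%, 2.13%, 4.15% and 4.47% of nuclear reads in the same hearts. Both were lowest in hearts 2 and 3. The part of Rn45s in the level of Lars2 was not tested.

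Counted by reads, long genes moved up. Myh6 alone held from 4.52% to 4.89% of nuclear reads. Titin (Ttn), the giant spring of the sarcomere, ranked 3 by reads with 14620 CPM but 404 per kilobase, at 325, 320, 271, 378 and 379 TPM in hearts 1 to 5. Ryr2, the calcium release channel, ranked 25 by reads and 283 per kilobase. Cox8b, a short complex IV subunit, ranked 245 by reads and 22 per kilobase, with 3872 ± 922 TPM (SD, n = 5).

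Few genes carried most of the reads. In hearts 1 to 5, 334, 331, 363, 329 and 330 genes held 50% of nuclear reads, and between 4201 and 4373 genes held 90%. The 10 leading genes held from 14.5% to 16.3%, and the 100 leading genes from 33.9% to 35.7%. A mean of at least 1000 CPM was reached by 110 rows, of at least 100 CPM by 1686 and of at least 1 CPM by 12791.

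The 100 most abundant protein-coding genes per kilobase shared compact gene structures. Their median exonic length was 1490.5 bases against 3465 over all 12263 coding genes that reached a mean of 1 CPM. Their median number of exon blocks was 7.5 against 10, and their median GC content was 53.6% against 50.3%. Ranking per kilobase favours short genes, so the difference in length is in part set by the ranking. By class, 23 of the 100 were nuclear respiratory chain genes, 18 sarcomere genes, 8 TCA cycle and pyruvate genes, 7 glucose genes and 5 fatty acid genes. These classes make up 0.693%, 0.424%, 0.245%, 0.245% and 0.269% of the 12263 genes. None of the endothelial, mural, matrix or immune genes was among the 100, and 18 belonged to no class. The latter were named after their values were seen. They included S100a1 and Lars2, and also Ech1, an enzyme of fatty acid oxidation in peroxisomes and mitochondria (2499 TPM), Ctsd, the lysosomal protease cathepsin D (2066 TPM), and Actb, β-actin (1349 TPM).

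MEF2 and serum response factor (SRF) are transcription factors known for driving muscle genes, and their sites were looked for on both strands in the 250 bases before the RefSeq start sites. An SRF site (CArG box) was found for 3 of the 79 most abundant genes with an entry, or 3.80%, against 1.47% of the coding genes that reached 1 CPM and 1.62% of all 27025 genes with a promoter entry. A MEF2 site was found for 4 of 79, or 5.06%, against 2.15% and 3.42%. The counts are small and are given as a description. Sites are matches by letters only, and binding was not tested. Matches in Myoz2, Fhl2 and Ndrg2 lie 33 to 22 bases before a start. There a MEF2 or SRF match cannot be told apart from a TATA-like element. All matches before sarcomere genes are shown but 1, an additional SRF match of Fhl2 farther from its start. They are printed on the strand of the gene (GRCm38.p6), with the motif in capitals, because they show what such a match looks like in a gene of the top ranks.
Actc1, chr2:114052893-114052942, minus strand, SRF site 47 to 38 bases before the start: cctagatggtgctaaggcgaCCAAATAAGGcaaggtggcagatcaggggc
Myl3, chr9:110763573-110763622, plus strand, SRF site 85 to 76 bases before the start: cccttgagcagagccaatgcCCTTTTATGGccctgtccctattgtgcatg
Mybpc3, chr2:91118034-91118083, plus strand, MEF2 site 90 to 81 bases before the start: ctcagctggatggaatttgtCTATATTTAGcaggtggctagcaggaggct
Myoz2, chr3:123034991-123035040, minus strand, MEF2 site 33 to 24 bases before the start: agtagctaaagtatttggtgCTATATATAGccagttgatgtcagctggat
Fhl2, chr1:43163963-43164012, minus strand, SRF site 31 to 22 bases before 1 of its starts: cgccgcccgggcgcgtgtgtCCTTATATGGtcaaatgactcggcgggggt
Fhl2, chr1:43196763-43196812, minus strand, MEF2 site 31 to 22 bases before another start: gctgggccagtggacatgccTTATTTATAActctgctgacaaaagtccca

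The 5 genes named in these lines encode cardiac actin, a light chain, cardiac myosin-binding protein C (Mybpc3, 2068 ± 453 TPM), the Z-disc protein calsarcin 1 (Myoz2, 3726 ± 425 TPM) and a LIM protein (Fhl2, 1942 TPM). TATAAA on either strand was found for 10.1% of the abundant genes, 8.03% of the coding genes that reached 1 CPM and 14.3% of all genes with an entry. The site of the respiratory factor NRF1 was found for 2.53% of the abundant genes against 9.26% of the coding genes that reached 1 CPM and 4.23% of all. The ERR site, TCAAGGTCA, was found for 1 of the 79 genes, or 1.27%, against 0.310% and 0.422%. No match says only that these letters are not in the window.

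In most pairs of related genes examined, the form known from heart or muscle was the higher. Of 32 pairs, in most of which the heart or muscle form was put first, the first form was higher per kilobase in all 5 hearts for 28 and lower in all 5 for 2, and 2 pairs were mixed. In 20 pairs the ratio was at least 10. The ratio is taken within each heart, so depth cancels where both genes are well read. Where the second gene had 0 reads in a heart, 3 reads were put in its place. The ratio is then a lower bound that moves with depth, as for the pairs with Myl7, Sln, Ryr1 and Ckmt1. With few reads of the second gene, as for Tnni1, the size of the ratio is uncertain.

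**Figure D3:**
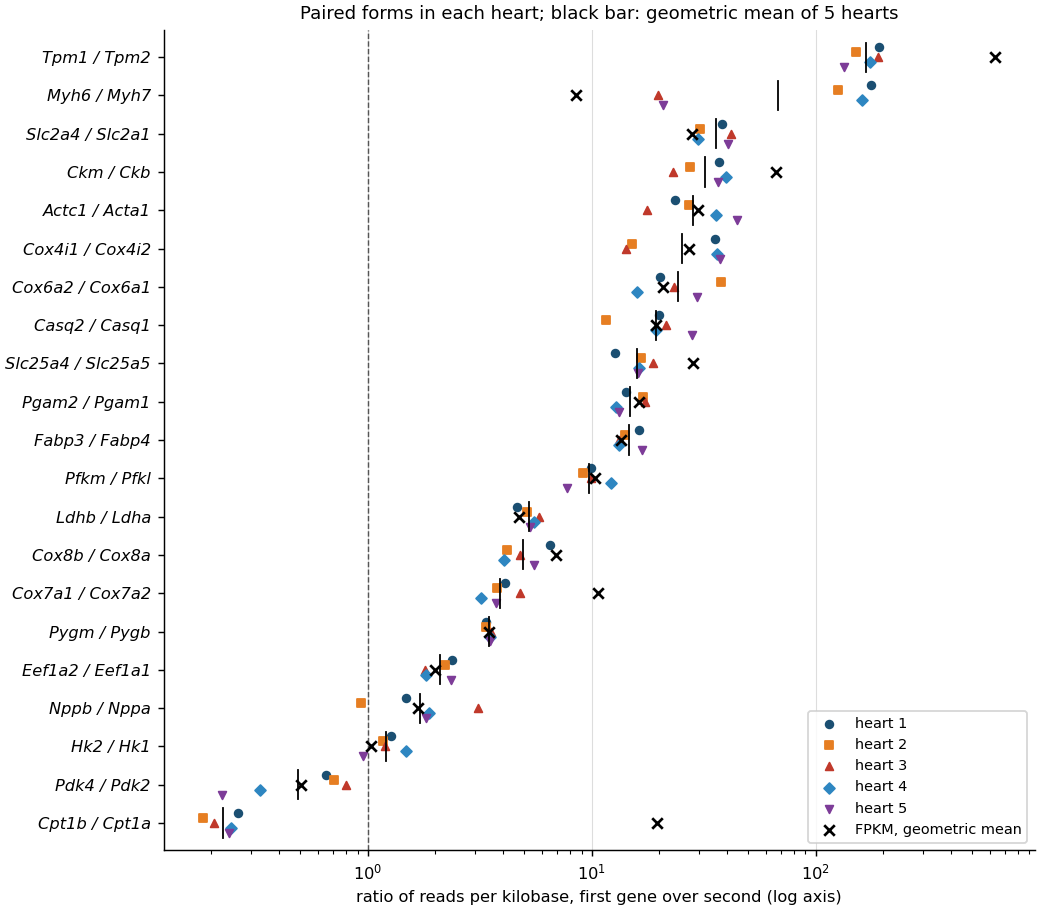
Ratio of reads per kilobase, first gene over second, in each of the 5 hearts (log axis), for the 21 pairs reported here whose second gene had at least 10 reads in every heart. Black bars are geometric means and crosses are the same ratio from the FPKM table; Myh6 over Myh7 spans 19.7 to 176, Pygm over Pygb 3.36 to 3.55, and Cpt1b over Cpt1a lies on opposite sides of 1 in the 2 tables.

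Among contractile proteins, the myosin pair varied most. Myh6 exceeded Myh7, the β-myosin heavy chain of slow muscle and the fetal ventricle, 176-fold, 126-fold, 19.7-fold, 162-fold and 20.8-fold in hearts 1 to 5. Hearts 3 and 5 thus stood apart from the other 3, with Myh7 at 971 and 1000 TPM against 115, 158 and 128. The FPKM table put the ratios at 9.73, 10.4, 6.14, 11.7 and 6.09, lower in all hearts but again with hearts 3 and 5 lowest. Myh6 and Myh7 are adjacent and nearly identical in much of their sequence, and Myh7 overlaps the antisense RNA Mhrt, and how shared reads were counted is not given in the sources used here. Actc1 exceeded Acta1, skeletal α-actin, 23.4-fold, 27.2-fold, 17.6-fold, 36.0-fold and 44.7-fold. Tpm1 exceeded Tpm2, β-tropomyosin, 167-fold (SD of log2 0.23, n = 5), but 632-fold in the FPKM table, 335-fold in plain reads and 252-fold with the longest transcript as length. Some forms were nearly absent: Tnni1, slow skeletal troponin I, had 3, 3, 3, 3 and 4 reads in hearts 1 to 5, while Tnni3 had from 8981 to 67400.

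In calcium handling, the skeletal forms were lower than the cardiac forms in all hearts. Atp2a1, the fast skeletal calcium pump, had from 6 to 23 reads per heart, and Ryr1, the skeletal release channel, from 0 to 26. Sarcolipin (Sln), the pump regulator of atria and skeletal muscle, had 3, 0, 0, 0 and 4 reads, where Pln, phospholamban, the ventricular regulator, stood at 3689 ± 188 TPM (SD, n = 5). Casq2, cardiac calsequestrin, exceeded Casq1, the skeletal form, 19.9-fold, 11.6-fold, 21.5-fold, 19.3-fold and 28.1-fold. Gja5, a connexin of conduction tissue and arteries, had 132, 12, 7, 91 and 36 reads against a level of 632 ± 48.3 TPM for Gja1, the main ventricular connexin.

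In the respiratory chain, the heart forms of 3 complex IV subunits exceeded the general forms in all hearts. Cox6a2 exceeded Cox6a1 20.1-fold, 37.8-fold, 23.2-fold, 15.97-fold and 29.4-fold in hearts 1 to 5. Cox7a1 exceeded Cox7a2 3.88-fold (SD of log2 0.21, n = 5), and Cox8b exceeded Cox8a 4.94-fold (SD of log2 0.28), or 3.23-fold in plain reads. The FPKM table gave 10.7 in place of 3.88 for Cox7a1 over Cox7a2. For subunit 4 the general form Cox4i1 exceeded Cox4i2, a form known from lung, 35.5-fold, 15.1-fold, 14.2-fold, 36.4-fold and 37.5-fold, so that hearts 2 and 3 were low.

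In energy transfer and glycolysis, too, muscle forms were mostly the higher. Ckm, muscle creatine kinase, exceeded Ckb, the brain form, 32.1-fold (SD of log2 0.33, n = 5), but 66.8-fold in the FPKM table and 59.8-fold in plain reads. Ckmt1, the general mitochondrial creatine kinase, had 14, 0, 0, 0 and 0 reads where the sarcomeric form Ckmt2 stood at 2748 ± 533 TPM. Slc25a4 exceeded Slc25a5, the general translocator, 15.96-fold, against 28.4-fold in the FPKM table and 24.8-fold in plain reads. The insulin-responsive glucose carrier Slc2a4 exceeded the basal carrier Slc2a1 35.8-fold (SD of log2 0.23). Pfkm over Pfkl, muscle over liver phosphofructokinase, was 9.68 and Pgam2 over Pgam1, muscle over brain phosphoglycerate mutase, was 14.8, or 7.01 in plain reads. Ldhb, the lactate dehydrogenase subunit typical of heart, exceeded Ldha 5.26-fold (SD of log2 0.13), between 4.62 and 5.82. Pygm over Pygb, muscle over brain glycogen phosphorylase, was 3.37, 3.36, 3.55, 3.51 and 3.50, the tightest of the 21 pairs plotted (SD of log2 0.04). Fabp3 exceeded Fabp4, the form of fat and endothelium, 14.6-fold (SD of log2 0.17). Eef1a2, the elongation factor form of muscle and neurons, exceeded the general Eef1a1 by a smaller factor of 2.09 (SD of log2 0.20). Hexokinases were even, with Hk2 over Hk1 at 1.27, 1.17, 1.19, 1.48 and 0.954.

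The 2 pairs in which the form named second was higher in all hearts both concern fuel choice. Pdk4 and Pdk2 are kinases that switch off pyruvate dehydrogenase, and Pdk4 is known to respond to fasting. Pdk4 stood at 738, 1020, 1104, 414 and 326 TPM in hearts 1 to 5 and Pdk2 at 1335 ± 139 (SD, n = 5). Their ratio was 0.654, 0.707, 0.796, 0.329 and 0.223, so that hearts 4 and 5 were low, and its mean in plain reads was 0.753 in place of 0.486. Cpt1b, the muscle form of the enzyme that admits fatty acids to mitochondria, had 177, 18, 15, 108 and 54 reads, and Cpt1a, the liver form, 1006, 146, 109, 658 and 335. In the FPKM table Cpt1b stood at 230, 117, 113, 219 and 165 and Cpt1a between 5.53 and 11.5, which turns the ratio from 0.225 to 19.6. Exons of Cpt1b overlap the annotated gene Gm44502, as do those of its neighbour Chkb, which had from 4 to 33 reads. The direction of this pair depends on the table, and the cause was not tested. Natriuretic peptides were mixed, with Nppb at 304 ± 93.3 TPM and Nppa at 174 ± 40.7.

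Other genes also differed between the tables, and the cause was not tested. Of 23331 rows in both tables, 61 had 0 reads in all 5 hearts and at least 1 FPKM in each. Among them were Hba-a1 and Hba-a2, α-globin genes of red blood cells, which stood at 0 reads while Hba-a1 had from 844 to 2470 FPKM. Blood is therefore seen in the counts mainly through a β-globin row, Hbb-bs, named Beta-s in the table, with 902 ± 229 TPM (SD, n = 5). Ndufs5 of complex I and Eif3j2, a translation initiation factor, were also at 0 reads, with mean FPKM of 92.2 and 10.2. Eno1, the general enolase, had 70, 9, 5, 33 and 9 reads, and Eno3, muscle enolase, exceeded it 18.03-fold in FPKM. A wider comparison took only the 8244 genes that averaged 10 CPM or more in the counts and had an FPKM above 0. Among them the tables were close, with 92.1% within 2-fold after centring. Pearson r across these genes, which are not independent replicates, was 0.955. FPKM stood over 4-fold relatively higher for 119 of them and lower for 6. Genes with few or 0 reads, such as Eno1, Hba-a1 and Ndufs5, were left out beforehand. The closeness of the tables therefore holds only for genes well read in the counts.

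Detection followed depth. A read was found for 16248, 13924, 14252, 15648 and 15171 nuclear rows in hearts 1 to 5. At the depth of the shallowest heart, 1793083 nuclear reads, the expected numbers were 14041, 13924, 14129.5, 13993.5 and 13998.8. The range of 2324 rows at full depth thus shrank to 206 at equal depth. Of the 23419 nuclear rows, 12949 had a read in all hearts, 6186 in none and 1328 in 1 heart only. A gene with no read in heart 2 may still be present at up to 1.67 CPM, the limit that a count of 0 allows there, against 0.226 CPM in heart 1. Intervals and limits cover counting error only.

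The spread between hearts fell with abundance and then levelled off. CPM in this and the next paragraphs are scaled between hearts by the trimmed mean of M values (TMM). The coefficient of variation (CV) is the SD over the 5 hearts as a percent of the mean. Its median was 50.4% for genes of 1 to 3 CPM, 18.8% for 10 to 30 CPM, 14.2% for 30 to 100 CPM and 11.7% above 1000 CPM. Counting alone would give a median CV of 39.9%, 12.7%, 7.56% and 1.34% in the same ranges. The square of the ratio of the median counting CV to the median CV was 62.6% for the rarest group and 1.30% for the most abundant. It is a rough measure of the part of counting in the variance of a typical gene. Over all 12790 genes that reached a mean of 1 CPM the median CV was 20.1%, and the common biological CV estimated by edgeR was 18.02%. Without hearts 2 and 3, the shallow ones, the median CV was 13.9%.

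**Figure D4:**
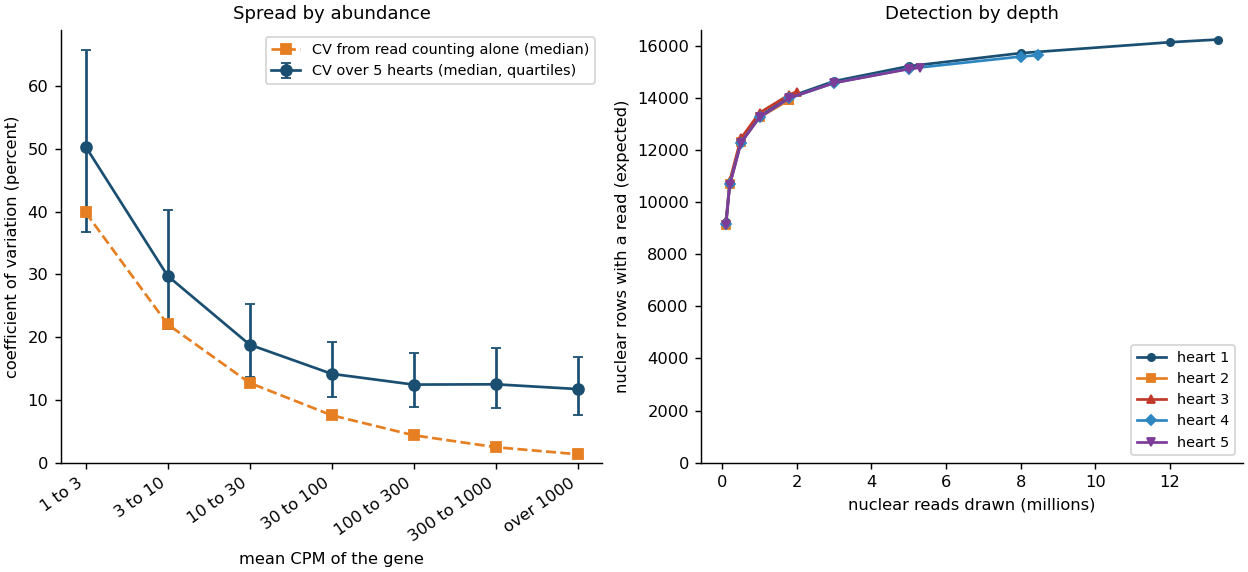
Left, median CV over 5 hearts (percent, with quartiles) by mean CPM of the gene, beside the median CV that read counting alone gives; the observed CV falls from 50.4% to 11.7% and the counting CV from 39.9% to 1.34%. Right, expected number of nuclear rows with a read against the number of nuclear reads drawn, 1 line per heart; the lines lie nearly on each other up to the common depth of 1793083 reads.

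Depth set what each heart could resolve. A gene of 10 CPM had a counting CV of 8.67% in heart 1, 10.8% in heart 4, 13.9% in heart 5, 21.98% in heart 3 and 23.8% in heart 2. A counting CV of 10% was reached at 7.52 CPM in heart 1 but at 56.6 CPM in heart 2. Over 8286 genes of at least 10 CPM, the SD of the log2 difference between hearts ran from 0.281 for hearts 1 and 4 to 0.512 for hearts 1 and 2, and it was 0.404 for the shallow hearts 2 and 3. The chi-square per degree of freedom between libraries was 3.36 to 16.3, and none was counted as a repeat of another. The first principal component of log2 CPM over 4783 genes of at least 30 CPM held 57.5% of the variance. It ordered the hearts as 1, 4, 5, 3 and 2, which is again the order of depth and of mitochondrial share.

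By function, the spread differed between classes. Among genes of at least 30 CPM the median CV was 13.6% over all 4783. It was 10.9% for 30 fatty acid genes and 12.2% for 49 translation factor genes. It was 15.6% for 48 sarcomere genes and 16.7% for 82 nuclear respiratory chain genes, although both classes are abundant and have median counting CVs of 1.60% and 3.01%. It was 30.3% for 12 genes of the immune class, which is not limited to leukocyte genes. Among them was Cd74, the invariant chain of antigen presentation, at 564, 676, 1012, 337 and 382 TPM. Within classes, Lpl, lipoprotein lipase, had the lowest CV of the fatty acid genes at 5.58%. Tnnt2 had the lowest of the sarcomere genes at 3.88%, and Pln had the lowest of the calcium genes at 4.65%. Myh7 had the highest of the sarcomere genes at 98.5%, Pdk4 of the TCA and pyruvate genes at 47.6%, and Mt2, a metallothionein, of the antioxidant genes at 60.01%. The sarcomere class taken as a whole had a CV of 1.93% in its share of nuclear reads.

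The 12 genes with the largest spread beyond counting were Myh7, Snord82, E2f1, Rorb, Fyco1, BC024978, Polr2a, Gfra2, Phlda1, Ptchd1, Pik3r5 and Pstpip2. In 10 of them hearts 2 and 3 were the 2 highest, and in all 12 the lowest heart was heart 1 or heart 4. Polr2a, the largest subunit of RNA polymerase II, stood at 342, 2572, 1895, 561 and 860 CPM in hearts 1 to 5. Fyco1, an adaptor for vesicle transport, stood at 1128, 6068, 2269, 1075 and 1665 CPM. E2f1, a transcription factor of the cell cycle, stood at 7.90, 92.9, 41.5, 9.50 and 20.2 CPM. The values of Polr2a and E2f1 rise in the order of mitochondrial share, and those of Fyco1 do so apart from hearts 1 and 4. The part of depth, mitochondrial share and RNA quality in these values was not tested. The exceptions were Myh7, with hearts 3 and 5 high, and Snord82, a small nucleolar RNA that a poly(A) library of long fragments is not made to capture, with heart 5 high at 88.1 CPM.

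**Figure D5:**
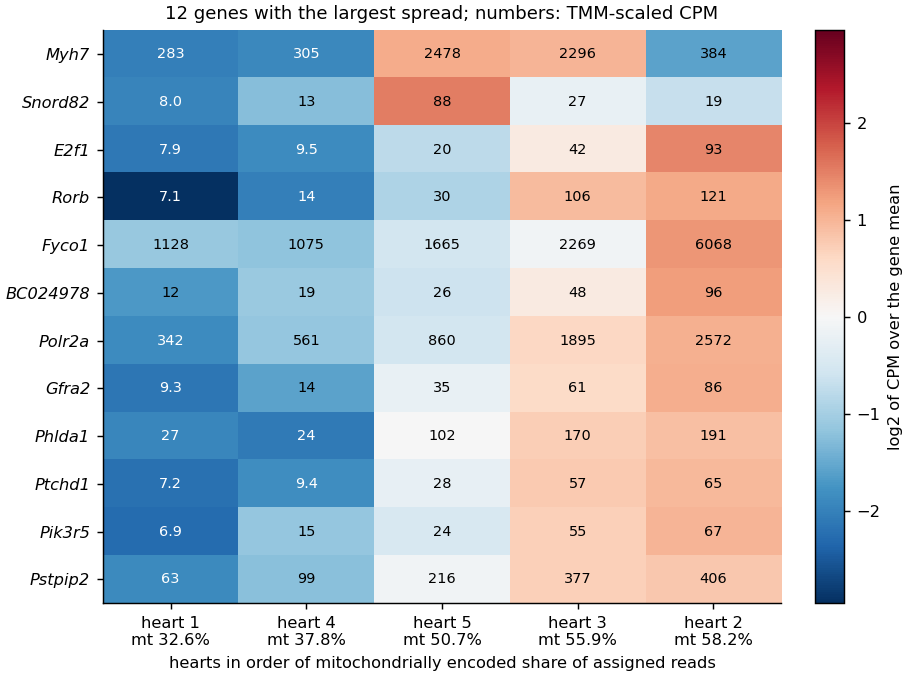
The 12 genes with the largest spread beyond counting, as log2 of TMM-scaled CPM over the mean of the gene (colour) with the CPM printed, hearts in order of mitochondrial share from 32.6% to 58.2%. For 10 of the 12 genes the 2 hearts on the right, 3 and 2, are the highest.

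At the other end, 12 genes of at least 30 CPM had CVs of 1.36% to 2.51%, below the CV that counting alone gives for each, so their order is not meaningful. They include Dip2b at 82.7, 81.6, 82.1, 83.7 and 84.3 CPM, Pomp, a proteasome assembly factor, at 74.5 ± 1.07 CPM (SD, n = 5), and Ptprb, an endothelial phosphatase, at 309 ± 7.12 CPM. Dbp, a transcription factor with a strong daily rhythm, was also among them, at 75.6, 75.9, 74.9, 73.3 and 72.5 CPM. With a trend in GC content removed, the CV was 2.06% for Dip2b, 2.43% for Pomp, 1.05% for Ptprb and 9.94% for Dbp, in place of 1.36%, 1.44%, 2.304% and 1.98%. The low CV of Dbp thus depends on the scaling. Nr1d1, the clock repressor REV-ERBα, stood at 595, 1223, 1387, 585 and 897 TPM, high in hearts 2 and 3, and its exons overlap the thyroid hormone receptor gene Thra. The 13 clock genes together stood between 1400 and 2279 CPM before TMM scaling, with a mean of 1795. Nr1d1 alone had a mean of 978 CPM after TMM scaling, so the sum largely follows this gene. That sum does not show whether the clock genes moved together.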

How the data were processed

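RNA of 5 wild-type hearts was described, and no groups were compared. The authors deposited raw read counts per gene (23457 rows), used as deposited, and a table of FPKM values (23369 rows), used as an alternative. The build was mm10, and Cufflinks 2.1, HTSeq, TopHat2 2.0.10 and Bowtie2 are among the tools in the submitters' processing notes, which give no roles. How reads of overlapping or repeated genes were counted is not given in the sources used here. Exonic lengths and coordinates came from GENCODE vM21 (GRCm38) for 23035 rows, and promoters from RefSeq (GRCm38.p6). Of the rows, 27 carried dates in place of symbols and were left unresolved.

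The 21 gene classes, 32 pairs and marker lists were chosen with earlier results of these data known. TPM denotes counts per kilobase scaled to 1000000 over nuclear rows without Rn45s. Named genes were the 20 highest by TPM, the 4 highest of each class and role, both genes of each pair, the markers, and the 12 genes with the largest excess of CV over the counting CV and the 12 with the smallest CV at a mean of at least 30 CPM. Normalisation and dispersion used edgeR 4.0.16 in R 4.3.3 and, as an alternative, DESeq2 1.42.0, in fits with an intercept only, tested on simulated data. Other steps used Python 3.11.15 with pandas 2.3.3. Errors are SDs over hearts.

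Alternatives were each heart left out, Rn45s kept, TPM in place of reads, symbols as printed only, FPKM, plain reads or the longest transcript for ratios, other rankings and detection limits, other scaling, filters and a GC correction for the spread. Omission of both shallow hearts was chosen after seeing the data. Of the pairs, 2 entered the counts but are not reported here.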

Additional observations from a re-analysis of the deposited data

Results flagged for a closer look

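Of 170 quantities with 1 value per heart that were checked, 6 had 1 heart far from the other 4, by the gap to its nearest neighbour relative to the whole range. Chance flags about 1 in 20 such groups. Small RNA rows held 0.0170% of nuclear reads in heart 5 against 0.00746% to 0.00891% in the others, and Snord82, a member of these rows, stood at 88.1 CPM there against 8.05 to 26.6. Smooth muscle and pericyte markers summed to 889 CPM in heart 1 and to between 1190 and 1248 in the others. Fyco1 stood at 6068 CPM in heart 2 against 1075 to 2269. The share of mt-Cytb in mitochondrial reads was 12.3% in heart 1 against 10.8% to 11.2%. Actb stood at 1640 TPM in heart 3 against 1256 to 1300. Among all 4783 genes of at least 30 CPM, 191 had 1 heart apart in this way, or 3.99%.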

How the results depend on the processing

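No paired analysis was possible because only 1 group of hearts was described and nothing was compared. Taken per kilobase, the share rose from 13.4% to 23.1% for the 5 metabolic classes, from 1.57% to 4.06% for the cytosolic ribosome and from 16.9% to 17.9% for the sarcomere. With Rn45s kept, the sarcomere share was 16.2%, and 293.4 and 4173.6 genes held 50% and 90% of nuclear reads in place of 337.4 and 4283.6, while per kilobase these counts were 173.6 and 3535. The mean number of rows with a read, 15049, fell to 14017 at equal depth and to 11461 with at least 10 reads. The median CV of 20.1% was 15.6% for genes of at least 10 CPM, from 18.02% to 20.7% with each heart left out, and 13.9% without both shallow hearts. The biological CV of 18.02% was from 17.1% to 19.7% with each heart left out and 14.7% without both shallow hearts. DESeq2 gave 13.9%, but as the median of estimates made gene by gene. That is another measure than the common value of edgeR, so the 2 are not directly comparable. Cpt1b over Cpt1a reversed in FPKM, to 4.29 on the log2 scale. By FPKM, 16 of the 20 most abundant genes were shared with the ranking per kilobase, and by plain CPM 14. The genes in the 20 by FPKM only were Cox7a1, Cox8b, Atp5k and Hba-a1. Hba-a1 had a mean of 1629 FPKM but 0 reads in the counts, so the ranking per kilobase leaves it out. The number of pairs with the first form higher in all hearts was 28 or 29 in every setting run. Among the other class shares and ratios, 46 of 348 values moved by more than 1 SD. The 348 include values with 1 heart left out, which cannot shift a mean of 5 hearts by 1 SD. Their number is therefore no measure of stability. TPM moved 17 of 18 class shares, Rn45s kept 5 of 18 and symbols as printed 1 of 18. Plain reads moved 14 of 23 ratios, FPKM 8 of 23 and the longest transcript 1 of 23. The cause was not tested gene by gene. Depth limits low genes most, through hearts 2 and 3.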
